A study of Mus musculus with 16 samples.

Results

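Microglia are held in their identity by a small set of DNA-binding proteins, and the genes of 9 of these transcription factors were followed across the 16 libraries: Spi1, Irf8, Runx1, Mef2c, Mef2a, Maf, Cebpa, Sall3, and Bhlhe41. They were chosen by name, as the rows of the deposited count table that carry these gene names, and make up 9 of its 24421 rows. All 9 were abundant enough to be tested, among 14565 genes tested in all. CD11b+ cells were enriched from brain with antibody-coated magnetic beads, and 1 poly(A) RNA library was sequenced per mouse. CD11b is carried by microglia and also by monocytes and neutrophils. All mice were female C57BL/6J animals, put on their diet at weaning and kept on it for about a month. CON mice (n = 4) ate standard chow, MAL mice (n = 5) ate an isocaloric diet low in protein and fat, and MAL-BG mice (n = 7) ate the same low diet and were also gavaged with a mixture of E. coli and Bacteroidales species. The first 2 groups were gavaged with buffer alone. The bacteria were thus varied only among mice on the low diet, and no group ate chow and received bacteria. The labels name cortical tissue as the starting material, whereas the Methods name whole cerebra.

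PU.1, the product of Spi1, and IRF8 bind myeloid enhancers side by side, and mice that lack PU.1 have no microglia. RUNX1 and C/EBPα act early in the myeloid lineage and remain bound at macrophage enhancers afterwards. MEF2 factors, MAF, SALL factors, and BHLHE41 are added or retained in tissue macrophages, and MEF2C in particular is known for restraining microglial responses to inflammatory stimuli.

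RefSeq start sites on GRCm38.p6 were given for 6 of the 9 genes (10 start sites), and Spi1, Maf, and Sall3 had no entry. Each window of 300 bases, 250 before the start and 50 after it, was searched on both strands. The search used short patterns based on sites that these factors are known to bind. In them N stands for any base, so a match can differ from such a site. Shown here are windows upstream of the first of 3 Mef2c starts and of the Mef2a start, genes whose levels parted in MAL-BG. The others are those of Bhlhe41, which rose, and of the second start of Runx1. That Runx1 start is the one among the 10 with matches to the joint ETS-IRF element upstream of it. Each window shown is 250 bases long except that of Bhlhe41. The Bhlhe41 window holds 112 bases and ends 139 bases before the start because the next base lies in an annotated exon. The starts shown for Mef2c, Mef2a, and Runx1 lie inside the gene spans given below. Capitals mark a motif match.
Mef2c promoter (GRCm38.p6 chr13:83503784-83504033, plus strand): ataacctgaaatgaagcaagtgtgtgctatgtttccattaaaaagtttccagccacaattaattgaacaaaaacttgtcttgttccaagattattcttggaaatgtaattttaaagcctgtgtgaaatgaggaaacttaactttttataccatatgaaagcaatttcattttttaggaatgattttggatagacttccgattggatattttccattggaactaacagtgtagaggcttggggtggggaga
Mef2a promoter (GRCm38.p6 chr7:67372859-67373108, minus strand): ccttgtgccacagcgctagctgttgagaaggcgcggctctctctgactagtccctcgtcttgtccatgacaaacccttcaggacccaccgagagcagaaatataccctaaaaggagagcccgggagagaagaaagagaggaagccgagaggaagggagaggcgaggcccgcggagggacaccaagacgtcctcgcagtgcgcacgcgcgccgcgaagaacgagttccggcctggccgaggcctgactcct
Bhlhe41 promoter (GRCm38.p6 chr6:145865559-145865670, minus strand): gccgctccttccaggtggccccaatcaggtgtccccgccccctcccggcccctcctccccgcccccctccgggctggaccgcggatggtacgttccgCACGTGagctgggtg
Runx1 promoter (GRCm38.p6 chr16:92697330-92697579, minus strand): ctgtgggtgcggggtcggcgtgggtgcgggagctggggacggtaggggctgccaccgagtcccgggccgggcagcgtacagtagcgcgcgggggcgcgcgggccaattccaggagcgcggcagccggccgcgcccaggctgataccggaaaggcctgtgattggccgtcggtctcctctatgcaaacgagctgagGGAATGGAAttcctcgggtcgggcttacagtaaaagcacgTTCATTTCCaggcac
In the Bhlhe41 window, the capitals are the E-box CACGTG, the sequence that BHLHE41 itself binds, and begin 153 bases before the start. In the Runx1 window they are matches to the ETS-IRF composite GGAANNGAA, where PU.1 and IRF8 bind together, beginning 55 and 15 bases before the start. Among the 10 windows, the composite was found in 2 (8.24% of all 32851 promoters), the E-box in 2 (7.15% of all), the RUNX letters TGTGGTT in 1 (5.27% of all), and the MEF2 letters CTANNNNTAG in 1, that of Mef2a, where the match spans the start itself (3.69% of all). The PU.1-type ETS letters AGGAAGT (9.35% of all), the C/EBP letters TTGCNNAA (10.8% of all), and the MAF half-site TGCTGAC (4.67% of all) were in none of the 10. The windows with the composite were those of the second Runx1 start and of the third Mef2c start, where the match lies after the start. ETS and composite matches can overlap, and a match is a run of letters, not a site shown to be bound.

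Levels are given as CPM, the usual depth-scaled count of a gene, here relative to library totals after TMM scaling. Library totals ranged from 10312703 to 13461574 counts in CON, from 10864121 to 12819982 in MAL, and from 14191791 to 18705202 in MAL-BG, so the MAL-BG libraries were the deepest. Replicates are numbered as in the deposited table. The 12 microglia markers, among them Cx3cr1, P2ry12, and Tmem119, were high in every group, with summed levels of 17710 to 28680 CPM in CON, 18090 to 31190 CPM in MAL, and 38990 to 53260 CPM in MAL-BG. The MAL-BG sums lay above all others. Markers of choroid plexus epithelium, which secretes cerebrospinal fluid, summed to 13940 to 54080 CPM in CON, 6465 to 42550 CPM in MAL, and 1772 to 16590 CPM in MAL-BG, and neutrophil markers to 55.6 to 209 CPM, 45.1 to 334 CPM, and 197 to 13740 CPM. In bulk RNA, fewer cells of a type and less RNA per cell cannot be told apart.

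**Figure D1:**
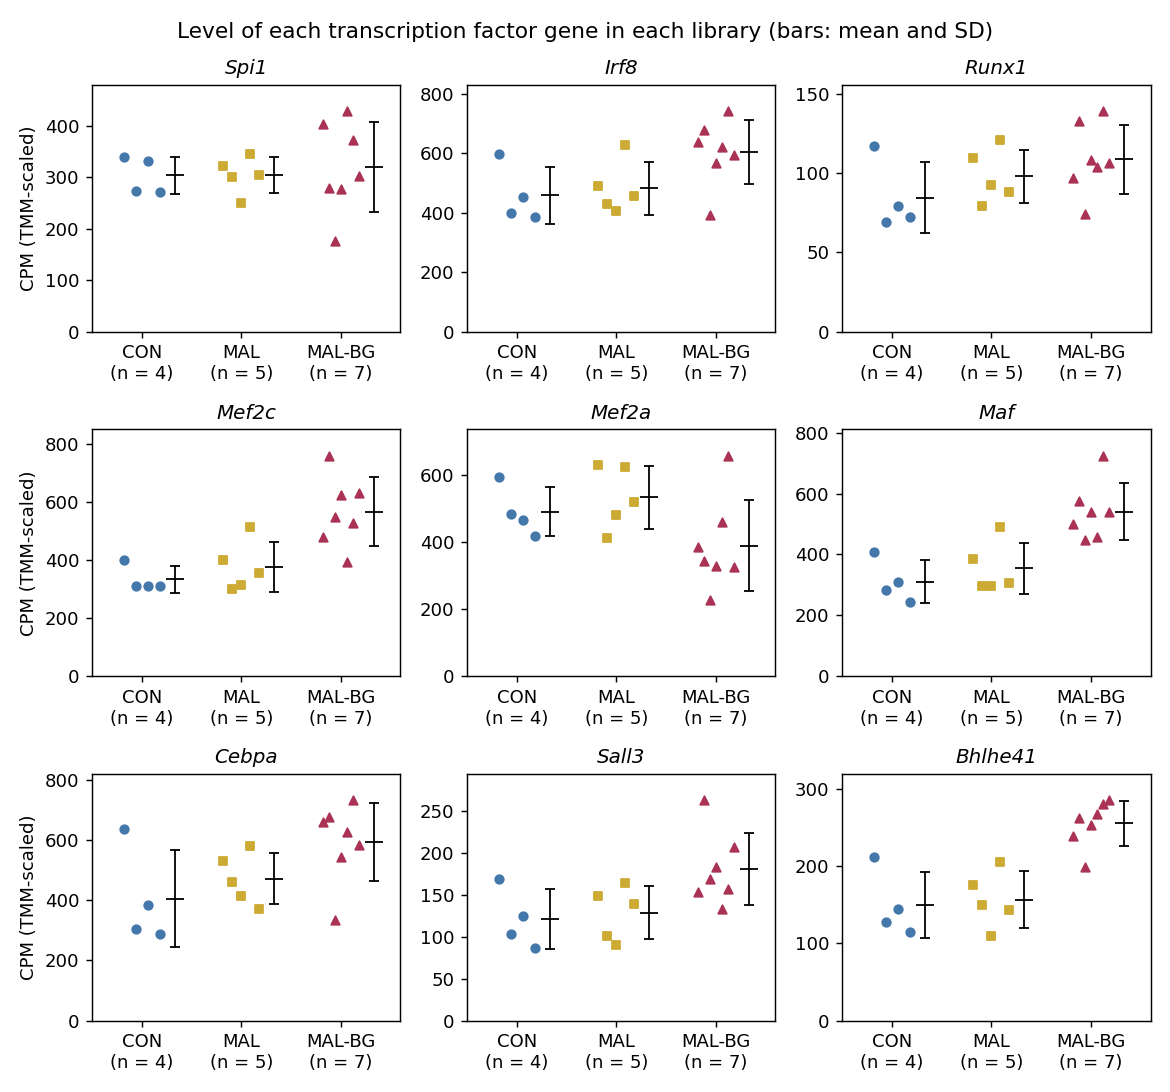
TMM-scaled CPM of each of the 9 genes (y axis, from 0) in each library (points; CON n = 4, MAL n = 5, MAL-BG n = 7), with the mean and SD of each group beside them. The Maf points of MAL-BG start at 448 CPM, above the highest CON library at 409 CPM, and the Spi1 and Mef2a points of MAL-BG spread most widely relative to their means.

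First, levels in MAL-BG were compared with CON, the contrast of diet and bacteria together. Mef2c, Maf, and Bhlhe41 rose 1.70-fold, 1.74-fold, and 1.71-fold in MAL-BG, and Spi1 (1.05-fold) and Mef2a (0.794-fold) did not pass the test. Under TMM scaling, 8 of the 9 fold changes were above 1, and all 9 were below 1 when libraries were instead scaled to the 12 microglia markers. A gene was called a DEG at an adjusted p under 0.05, by the quasi-likelihood test of edgeR after Benjamini-Hochberg correction across the tested genes, and an absolute log2 fold change above 0.58. By this rule 3 of the 9 genes were higher and 0 lower, where 11.4% of all tested genes were called higher and 21.7% lower. The median log2 fold change was 0.56 over the 9 genes and −0.041 over all genes tested. By the adjusted p alone 4 of the 9 were higher, against 19.8% of all genes.

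Spi1 encodes PU.1 (chr2:91082374-91115759, plus strand). It measured 339, 273, 332 and 271 CPM in CON and 323, 300.0, 251, 346 and 305 CPM in MAL. Among MAL-BG libraries it ranged from 176 to 429 CPM, with a median of 302 CPM. The MAL-BG range enclosed those of both other groups, with 3 libraries above the highest CON library and 1 below the lowest. No difference from CON was detected (log2 fold change 0.076, SE 0.19, adjusted p = 0.764, 95% interval −0.32 to 0.47), and the value was −0.022 without MAL-BG replicate 5 and −0.82 (adjusted p = 0.000133) under microglia marker scaling.

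Irf8, the interferon regulatory factor that partners PU.1 (chr8:120736358-120756694, plus strand), measured 597, 399.5, 453 and 387 CPM in CON. The MAL values were 491, 428, 405, 628 and 456 CPM, and MAL-BG spanned 394 to 741 CPM, with a median of 621 CPM. Of the 7 MAL-BG libraries, 4 lay above every CON library and none below. The difference did not pass the test (log2 fold change 0.40, SE 0.17, adjusted p = 0.0678), and was −0.47 (adjusted p = 0.000864) under microglia marker scaling.

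Runx1, a core factor of blood cell development (chr16:92601466-92826074, minus strand), was the lowest of the 9 per length. It stood at 118, 69.1, 79.4 and 72.7 CPM in CON, at 109.6, 79.7, 92.8, 121 and 88.2 CPM in MAL, and at 74.3 to 139 CPM, with a median of 107 CPM in MAL-BG. The 3 groups overlapped, and CON replicate 1 lay far above the other CON libraries. MAL-BG did not differ detectably from CON (log2 fold change 0.36, SE 0.18, adjusted p = 0.105). Under microglia marker scaling the value was −0.49 (adjusted p = 0.00569).

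For Cebpa, which encodes C/EBPα of the myeloid progenitor program (chr7:35119293-35121928, plus strand), CON libraries held 637, 305, 385 and 289 CPM. Those of MAL held 532, 461, 414, 579 and 369.7 CPM, and those of MAL-BG 332 to 731 CPM, with a median of 625 CPM. CON replicate 1 was again far above the other CON libraries, and MAL-BG replicate 3 (332 CPM) sat among the CON values. The adjusted p missed the threshold (log2 fold change 0.56, SE 0.23, adjusted p = 0.0565), but Cebpa was called without CON replicate 1 (log2 fold change 0.86, adjusted p = 0.00336) or without MAL-BG replicate 3 (0.66, adjusted p = 0.0135), and stood at −0.29 (adjusted p = 0.0917) under microglia marker scaling.

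Mef2c, whose factor keeps the microglial response to inflammation in check (chr13:83504017-83667079, plus strand), measured 402, 311, 309 and 311 CPM in CON and 399, 299, 315, 514 and 357 CPM in MAL. In MAL-BG it spanned 394 to 759 CPM, with a median of 549.8 CPM, and 6 of the 7 libraries lay above every CON library, the exception being replicate 5 (394 CPM). It rose under TMM scaling (log2 fold change 0.77, SE 0.18, adjusted p = 0.00268, 95% interval 0.39 to 1.14), but not under microglia marker scaling (−0.092, adjusted p = 0.633).

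Mef2a, its widely expressed paralog (chr7:67231163-67376456, minus strand), measured 594, 483, 467 and 419 CPM in CON and 631, 411, 481, 624 and 519 CPM in MAL. In MAL-BG the level ranged from 227 to 657 CPM, with a median of 344 CPM. Of the MAL-BG libraries 5 lay below every CON library, while replicate 6 (657 CPM) was the highest of all 16. The difference did not pass the test (log2 fold change −0.33, SE 0.22, adjusted p = 0.221). Under microglia marker scaling it was called lower (−1.23, adjusted p = 2.28e-05).

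The counts of the MEF2 genes were also set against each other within each library, a ratio that no scaling of libraries can alter. This ratio was chosen after the values had been seen and is given with no test. Mef2c counts were 0.676, 0.643, 0.662 and 0.743 times the Mef2a counts in CON and 0.633, 0.728, 0.655, 0.823 and 0.687 times in MAL. In MAL-BG the ratio was 1.24, 2.21, 2.42, 1.90, 0.857, 0.804 and 1.94 for replicates 1 to 7. Of the MAL-BG libraries 6 lay above all 9 others, and replicate 6 lay above all of CON but below MAL replicate 4. Maf counts likewise stood at 0.893 to 1.21 times those of Spi1 in CON, 0.983 to 1.41 in MAL, and 1.07 to 2.54 (median 1.94) in MAL-BG. For Bhlhe41 over Spi1 these ranges were 0.422 to 0.624, 0.435 to 0.595, and 0.594 to 1.13. Genes that were not called had higher ratios to Spi1 as well, with medians in CON and MAL-BG of 1.45 and 1.98 for Irf8, 1.14 and 1.93 for Cebpa, 0.378 and 0.660 for Sall3, and 0.261 and 0.373 for Runx1. The MAL-BG libraries above all 9 others numbered 6 of 7 for Bhlhe41, 5 for Maf, Irf8, and Cebpa, and 4 for Sall3 and Runx1, so higher ratios to Spi1 were not particular to the called genes.

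**Figure D2:**
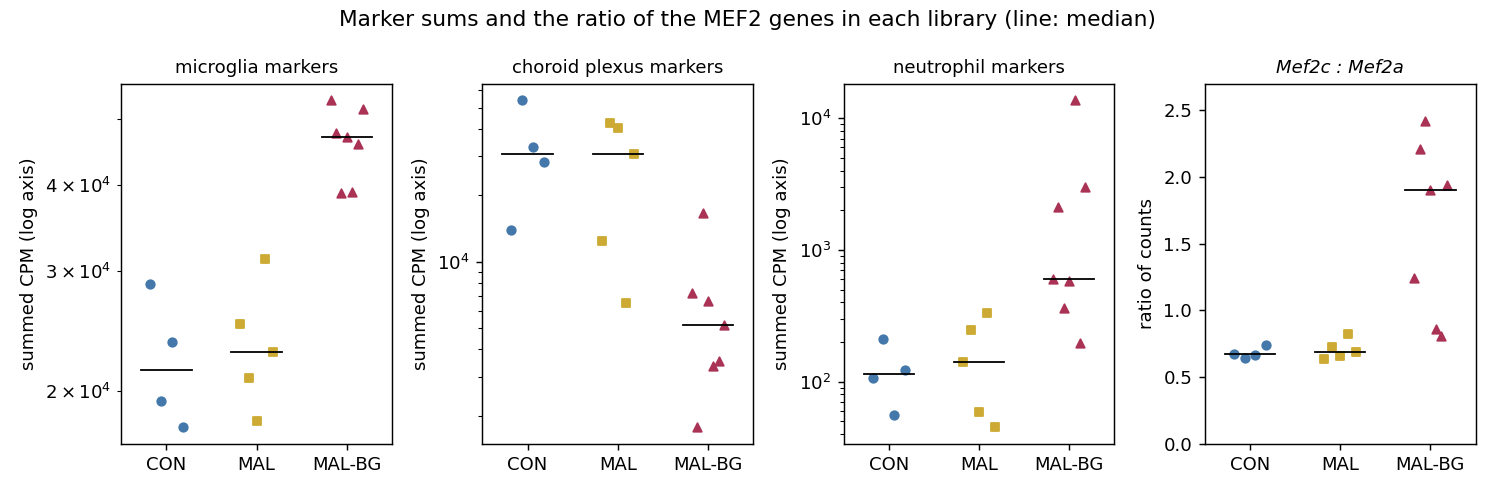
Summed CPM of the 12 microglia, 10 choroid plexus, and 11 neutrophil markers (log axes), and the ratio of Mef2c to Mef2a counts (linear axis from 0), in each library (points), with the median of each group as a line. The MAL-BG libraries lie above all others in microglia markers (38990 CPM or more) and spread from 0.804 to 2.42 in the MEF2 ratio, whereas CON and MAL stay between 0.633 and 0.823.

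Maf, a basic leucine zipper factor of tissue macrophages (chr8:115703253-115706894, minus strand), measured 409, 284, 308 and 242 CPM in CON and 385, 295, 296, 489 and 306 CPM in MAL. The MAL-BG libraries held 448 to 724 CPM, with a median of 539 CPM. All 7 lay above all 4 CON libraries, as was so for 9.83% of the genes tested. Maf rose under TMM scaling (log2 fold change 0.80, SE 0.18, adjusted p = 0.00209, 95% interval 0.42 to 1.18), and stood at −0.054 (adjusted p = 0.695) under microglia marker scaling.

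Bhlhe41, a repressor that binds E-boxes (chr6:145858243-145865420, minus strand), measured 212, 128, 144 and 114 CPM in CON and 176, 150.3, 109, 206 and 143 CPM in MAL. Its MAL-BG levels spanned 199 to 286 CPM, with a median of 263 CPM. Apart from replicate 3 (199 CPM), every MAL-BG library exceeded CON replicate 1 (212 CPM), the highest of CON. In MAL-BG it had the smallest coefficient of variation of the 9 genes (11.6%), and Mef2a the highest (35.2%). Bhlhe41 rose (log2 fold change 0.77, SE 0.18, adjusted p = 0.00259, 95% interval 0.39 to 1.15), and stood at −0.069 (adjusted p = 0.591) under microglia marker scaling.

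Sall3, a zinc finger gene of the spalt family on chromosome 18, measured 169, 103, 125 and 87.2 CPM in CON and 149, 101, 90.4, 164 and 139.8 CPM in MAL. It ranged from 133 to 263 CPM, with a median of 169 CPM in MAL-BG. There 3 libraries lay above every CON library and none below. Sall3 passed the adjusted p but fell just short of the fold threshold (log2 fold change 0.576, SE 0.21, adjusted p = 0.0368). It was called with DESeq2 size factors (0.60, adjusted p = 0.036) and in 6 of the 16 fits that left out 1 library, and was −0.24 (adjusted p = 0.223) under microglia marker scaling.

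**Figure D3:**
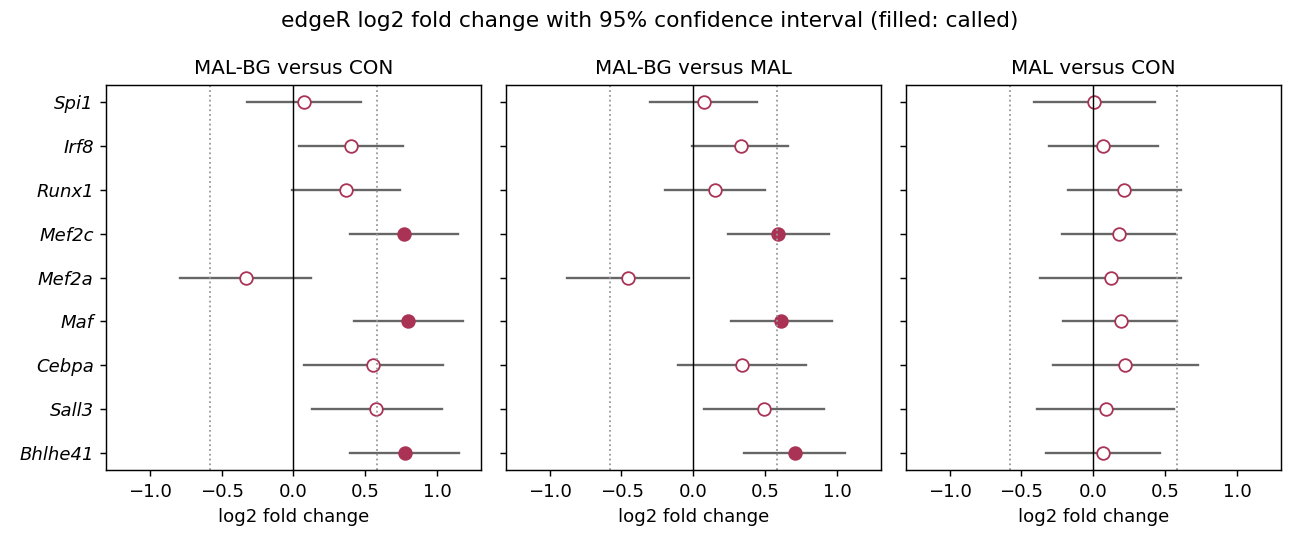
Log2 fold change of the 9 genes (x axis) in the 3 comparisons, with 95% confidence intervals derived from the edgeR test. Filled points are called, and dotted lines mark 0.58 on either side of 0. Mef2c, Maf, and Bhlhe41 are filled in both MAL-BG comparisons, and no gene is in MAL versus CON, where intervals lie within −0.41 to 0.73.

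Next, MAL-BG was compared with MAL, mice on the same diet without bacteria. The same 7 MAL-BG libraries enter both comparisons, which are thus not independent, and their values are set side by side. Again Mef2c (log2 fold change 0.59, SE 0.17, adjusted p = 0.0086), Maf (log2 fold change 0.61, SE 0.17, adjusted p = 0.00716), and Bhlhe41 (log2 fold change 0.70, SE 0.17, adjusted p = 0.00293) rose, which is 3 of 9 where 10.2% of all genes were called higher and 20.2% lower. Bhlhe41 exceeded the highest MAL library in 6 of the 7 MAL-BG libraries, and Mef2c and Maf did so in 5 of 7. The median log2 fold change was 0.33 over the 9 genes and −0.027 over all genes tested.

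The remaining 6 did not pass. Sall3 came closest (log2 fold change 0.49, SE 0.20, adjusted p = 0.0537), with 4 of the 7 MAL-BG libraries above every MAL library. Mef2a was 0.731-fold of MAL (log2 fold change −0.45, SE 0.20, adjusted p = 0.0787), and was called lower once MAL-BG replicate 6 was left out (−0.63, adjusted p = 0.00544). Cebpa did not pass (log2 fold change 0.33, SE 0.21, adjusted p = 0.206), although 5 of the 7 MAL-BG libraries lay above every MAL library. Irf8 (log2 fold change 0.33, SE 0.16, adjusted p = 0.103), Runx1 (log2 fold change 0.15, SE 0.16, adjusted p = 0.474), and Spi1 (log2 fold change 0.070, SE 0.17, adjusted p = 0.764) did not pass either. Under microglia marker scaling, all 9 values against MAL were below 0, and Spi1 (−0.77, adjusted p = 0.000148), Runx1 (−0.67, adjusted p = 0.000384), and Mef2a (−1.28, adjusted p = 9.2e-06) were called lower, as were 63% of all genes (0.405% higher).

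The calls of Mef2c and Maf against MAL did not hold in every fit that left out 1 library. The log2 fold changes of Mef2c and Maf lay so near to 0.58 that both were lost without MAL replicate 2 (0.52 and 0.55), 3 (0.53 and 0.55), or 5 (0.57 and 0.56). Mef2c was also lost without MAL-BG replicate 2 (0.55) and Maf without MAL-BG replicate 6 (0.53). Bhlhe41 kept its call in all 16 such fits (0.60 to 0.82).

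MAL and CON, the contrast of diet alone, showed no called gene among the 9. None was called among all genes either (0% higher and 0% lower by edgeR, and likewise 0 by DESeq2). By edgeR, 212 of 14565 genes had an unadjusted p under 0.05, a smaller share than the 0.05 that chance alone would give. The reason was not tested, and 0 calls do not show that levels were equal. The log2 fold changes of the 9 genes ran from 0.006 (Spi1) to 0.22 (Cebpa), the smallest unadjusted p was 0.273 (Runx1), and every adjusted p was 0.999. All 9 values were above 0 under TMM scaling, but that of Spi1 turned below 0 with DESeq2 size factors (−0.003). The 95% intervals lay within −0.41 to 0.73, and those of Cebpa (−0.28 to 0.73), Runx1 (−0.18 to 0.61), and Mef2a (−0.37 to 0.61) reached past the fold threshold on the higher side.

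The direction of these values depended on the scaling. Of the 12 microglia markers 9 were called higher in MAL-BG and 0 lower (median log2 fold change 0.81 against CON and 0.82 against MAL). Cx3cr1, Trem2, Aif1, and Csf1r are also in the list of PU.1 and IRF8 targets below. With TMM 34.4% of the calls against CON were higher, with DESeq2 size factors 36.3%, with upper quartiles 32.8%, with the mean log2 CPM of all genes 61.4%, and with the microglia markers 0.557%. Against MAL the share was 33.4% with TMM, 62.2% with the mean log2 CPM, and 0.639% with the microglia markers. Across all genes, the median against CON was shifted to 0.25 by the mean log2 CPM and to −0.92 by the microglia markers. On the mean log2 CPM scale, 7 of the 9 genes were called higher against CON, all but Spi1 and Mef2a, where 25.3% of all genes were called higher and 15.9% lower. Against MAL, 5 of the 9 were called higher on that scale, where 24% of all genes were higher and 14.6% lower. With the microglia markers 2 of the 9 were called lower against CON, where 66.2% of all genes were lower and 0.371% higher.

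**Figure D4:**
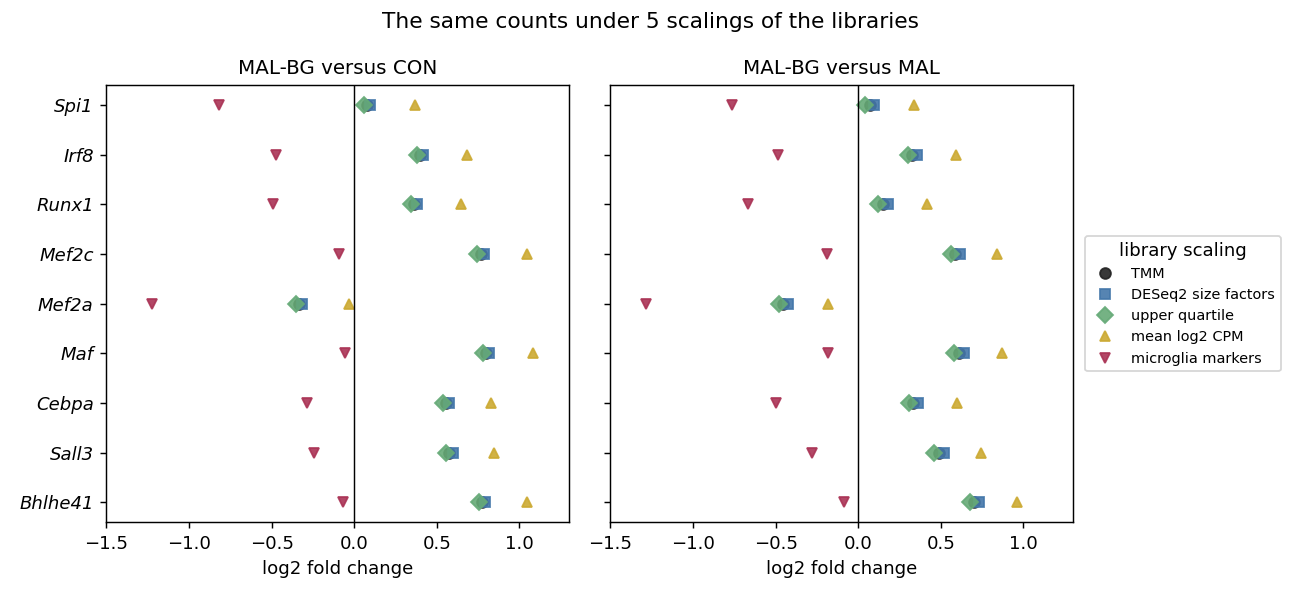
Log2 fold change of the 9 genes (x axis) under 5 scalings of the libraries (symbols), for MAL-BG versus CON and versus MAL. TMM, DESeq2 size factors, and upper quartiles nearly coincide, scaling by the mean log2 CPM moves each gene to the right, and scaling by microglia markers puts all 9 below 0, with Maf at −0.054 and Mef2a at −1.23 against CON.

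Levels within groups were also set beside the marker sums of other cell types. CON replicate 1 was highest in CON for all 9 genes and had the lowest choroid plexus and the highest microglia sum of its group. Its border macrophage sum was the highest of CON as well (655 CPM, the next being 359 CPM). MAL replicate 4 was highest for 8 of 9 genes and stood at the same ends of these sums in MAL. Its border macrophage sum was 794 CPM, the next being 361 CPM. MAL-BG replicate 3 was lowest for 7 of 9 genes, with the highest choroid plexus sum (16590 CPM) and the lowest microglia sum (38990 CPM) in MAL-BG. Over the 16 libraries, after the mean of each group was taken off, Pearson's r of a gene's log2 CPM with the choroid plexus markers lay between −0.85 (Runx1) and −0.55 (Spi1), and with the microglia markers between 0.45 (Mef2c) and 0.88 (Irf8). With neutrophil markers r was −0.12 (Maf) to 0.26 (Bhlhe41). Border macrophage markers (0.29 for Sall3 to 0.63 for Maf) and lymphocyte markers (0.082 for Mef2a to 0.51 for Irf8) had an r above 0 with all 9 genes. With monocyte markers r ran from −0.66 (Maf) to 0.15 (Spi1) and was above 0 for 1 of 9 genes. Values below 0 were also found with markers of oligodendrocyte precursors (−0.92 to −0.53), of endothelial and mural cells (−0.89 to −0.41), of astrocytes (−0.89 to −0.25), of ependyma (−0.88 to −0.25), and of neurons (−0.81 to −0.15). Immediate early genes had an r of 0.35 (Spi1) to 0.82 (Runx1), above 0 for all 9 genes. All CPM values of a library share 1 total, and the part of these cell types in the differences between groups was not tested.

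Calls were repeated without libraries rich in such markers, which were picked after the data had been seen. Leaving out MAL-BG replicates 2, 5, and 7, the richest in neutrophil markers, left 3 genes called against CON and 3 against MAL. Of all genes, 11.2% were then called higher and 15.5% lower against CON, and 10% and 13.7% against MAL. Without CON replicate 2 and MAL replicates 2 and 3, the richest of those groups in choroid plexus markers, 3 were still called against CON. Of all genes, 8.75% were then called higher and 17.5% lower against CON. Against MAL, 0 were called, with Bhlhe41 at 0.54 (adjusted p = 0.0468), Maf at 0.45 (adjusted p = 0.109), and Mef2c at 0.41 (adjusted p = 0.121). Calls against MAL fell over all genes too, from 10.2% to 6.64% higher and from 20.2% to 12.7% lower. MAL replicates 2 and 3 were also each the lowest of MAL for 4 of the 9 genes. Whether the choroid plexus content mattered was thus not tested.

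Among themselves, the 9 genes varied together within groups to differing degrees. Of the 36 pairs, 35 had an r above 0 after the group means were taken off (n = 16 libraries, median 0.69). Irf8 and Cebpa were the closest pair (r = 0.93, Spearman's rho = 0.94, and r = 0.91 without the 2 farthest libraries), followed by Irf8 and Runx1 (r = 0.91, rho = 0.82). Mef2c and Sall3 had an r of 0.88 (rho = 0.87), with 0.96 within MAL-BG and 0.83 within CON and MAL. Within CON and MAL, Mef2c had a higher r with Maf (0.92), Irf8 (0.91), Mef2a (0.88), and Runx1 (0.86) than with Sall3. Spi1 and Mef2a varied together (r = 0.78, rho = 0.81), yet neither did with Mef2c (r = −0.16 for Spi1, r = 0.046 for Mef2a). The low values were those of MAL-BG. Within CON and MAL alone Mef2c had an r of 0.71 with Spi1 and 0.88 with Mef2a, whereas within the 7 MAL-BG libraries these were −0.53 and −0.38. Sall3 parted likewise, with an r of 0.90 with Spi1 and 0.87 with Mef2a in CON and MAL, and −0.43 and −0.37 in MAL-BG. All pairs share libraries and totals, and the values are given as a description.

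**Figure D5:**
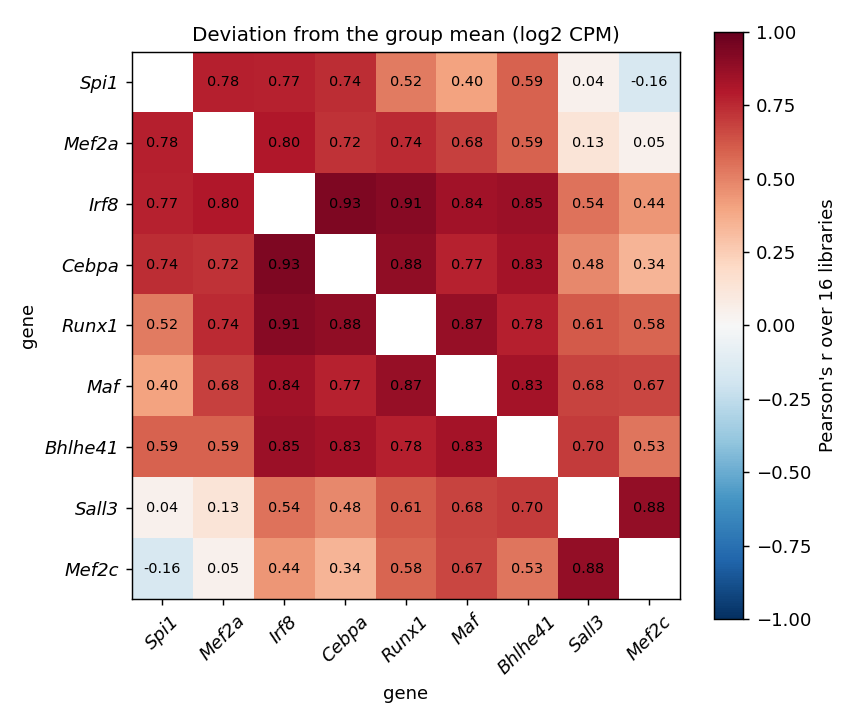
Pearson's r between the 9 genes (rows and columns) over 16 libraries, computed on log2 CPM after the mean of each group was taken off, with color from −1 (blue) to 1 (red). Irf8, Cebpa, Runx1, Maf, and Bhlhe41 form a red block with r of 0.77 to 0.93, and Spi1 and Mef2c at opposite corners have the lowest value, −0.16.

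The genes whose levels were most like each factor were taken from 9787 genes with a mean above 10 CPM, by the same r. For Spi1 these were Myo1f (0.98), Ptpn6 (0.97), a phosphatase of blood cells, and Nubp1 (0.97). Those of Irf8 were Prex1, Rab3il1, and Gna15 (0.98 to 0.99), and Gna15 was also among those of Cebpa with Plxnb3 and Hmha1 (0.96 to 0.97). Runx1 was joined by Ncoa3, Dtx4, and Gga3 (0.96), Mef2a by Stau1, Rreb1, and Mtr (0.96 to 0.97), and Mef2c by Cebpz, Celf2, and Hk2 (0.95 to 0.96). Maf went with Ppip5k2, Arhgap12, and Rin2 (0.93 to 0.96), Sall3 with Mgat4a, Itgb3, and Rtn4rl1 (0.94), and Bhlhe41 with Bid, Polm, and Hmga2-ps1 (0.93 to 0.94).

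Per kilobase of annotated exon, Cebpa was the highest of the 9 in CON (153 ± 61.1 CPM per kb), followed by Spi1 (113 ± 13.7), Irf8 (65.1 ± 13.6), Maf (37.7 ± 8.62), Mef2a (33.4 ± 5.03), Bhlhe41 (22.3 ± 6.42), Mef2c (21.2 ± 2.90), Sall3 (16.2 ± 4.74), and Runx1 (7.04 ± 1.85; SD, n = 4). The CON ranges of Cebpa and Spi1 overlapped, as did those of each pair of neighbors from Maf to Sall3 in this order. In MAL-BG (n = 7) Mef2a (26.5 ± 9.34) stood below Bhlhe41 (38.0 ± 4.41) and Mef2c (36.0 ± 7.53), although their ranges overlapped. With the longest transcript as the length, Mef2a (70.4 ± 24.8) instead stood above Bhlhe41 (41.7 ± 4.83) in MAL-BG. Mef2a still stood below Mef2c (90.2 ± 18.8). In MAL-BG, Irf8 (174 ± 31.4) then also stood above Spi1 (157 ± 43.1), whereas per kilobase of exon Spi1 (119) was above Irf8 (85.7). The order between Cebpa at the top and Sall3 and Runx1 at the bottom thus depended on the length used.

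Other members of the same factor families and their partners were examined as a list. Of 28 genes, 25 were tested, 1 was called higher and 6 lower against CON (11.4% and 21.7% of all genes), with a median log2 fold change of −0.029. Named by the rule for lists, the lower genes were Maff (log2 fold change −3.37, SE 0.24, adjusted p = 3.71e-07), a small MAF protein without an activating domain, Bhlhe40 (log2 fold change −1.93, SE 0.25, adjusted p = 4.42e-05), the close paralog of Bhlhe41, Mef2d (log2 fold change −1.23, SE 0.24, adjusted p = 0.000734), Irf1 (log2 fold change −1.20, SE 0.17, adjusted p = 7.36e-05), an interferon-induced factor, and Mafk (log2 fold change −1.02, SE 0.11, adjusted p = 8.24e-06). For these 5, which were named for the size of their change, all MAL-BG libraries lay below all CON libraries, as was so for 11.1% of the genes tested. Cebpb, an inflammatory C/EBP factor outside that rule and named after its value was seen, was the sixth (−0.96, adjusted p = 0.00272). Bhlhe40, for example, stood at 28.2 to 95.8 CPM in CON, 33.2 to 69.2 CPM in MAL, and 13.3 to 22.7 CPM in MAL-BG. Maff stood at 43.5 to 58.2 CPM, 14.1 to 41.3 CPM, and 3.04 to 5.53 CPM. Mafg, a further small MAF gene named after its value was seen, did not pass (log2 fold change 0.55, SE 0.28, adjusted p = 0.118). Under TMM scaling Mef2d, Bhlhe40, Maff, and Mafk thus had log2 fold changes of the opposite sign to Mef2c, Bhlhe41, and Maf, and Mafg did not, whereas under microglia marker scaling Mef2c, Bhlhe41, and Maf were below 0 too. Under microglia marker scaling 17 of the 25 were called lower and 1 higher (66.2% and 0.371% of all genes), and by the mean log2 CPM 6 lower and 6 higher (15.9% and 25.3%).

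Several of the lower family members are also known to be induced rapidly in stressed cells. Of 10 immediate early genes, which rise during tissue dissociation, 5 were called lower against CON as well (Fosb, Egr1, Ier2, Atf3, and Dusp1). Fos, Jun, Junb, Btg2, and Zfp36 did not pass, and 21.7% of all genes were called lower. The list had a median log2 fold change of −0.73 and sums of 9793 to 27140 CPM in MAL-BG against 20250 to 41560 CPM in CON. Their part in the lower values was not tested.

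Cebpe, a granulocyte factor, was the 1 higher family gene (adjusted p = 0.0058), at 0.076 to 0.315 CPM in CON, 0.239 to 1.36 CPM in MAL, and 0.594 to 37.8 CPM in MAL-BG. The CON levels amount to a few counts per library, so no fold is given. All 11 neutrophil markers tested were called higher in MAL-BG too (median log2 fold change 4.55), whose part in the Cebpe value was not tested. Sall1, the family member best known for microglial identity and among the most abundant uncalled genes of the list, had a log2 fold change of 0.32 (adjusted p = 0.224). It thus had the same sign as Sall3 under TMM scaling and did not pass.

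Signals that maintain microglia were examined as a list of 16 genes, of which 1 was called higher and 4 lower against CON, near or below the 11.4% and 21.7% of all genes (median log2 fold change 0.074). Tgfbr1, a receptor of the TGF-β pathway, rose (log2 fold change 0.74, SE 0.18, adjusted p = 0.00396). Csf1, a ligand of the receptor on which microglia depend for survival, fell from 171 ± 81.7 CPM to 55.8 ± 5.65 CPM (mean ± SD, n = 4 and 7, log2 fold change −1.61, SE 0.23, adjusted p = 7.6e-05). Itgb8, an integrin subunit that activates latent TGF-β, fell from 9.53 ± 2.41 CPM in CON to 0.338 ± 0.231 CPM in MAL-BG (mean ± SD, n = 4 and 7, edgeR adjusted p = 5.75e-06). Tgif1, a repressor of TGF-β signaling (log2 fold change −1.36, SE 0.18, adjusted p = 5.29e-05), and Csf2ra, a receptor of GM-CSF (log2 fold change −1.18, SE 0.33, adjusted p = 0.00891), also fell. Astrocyte and neuron markers were lower in MAL-BG at the same time (5 of 8 and 8 of 10 called, median log2 fold changes −2.22 and −2.59), and their part in these values was not tested. Csf1r, the receptor itself and a PU.1 target, stood at 4164 to 6587 CPM in CON and 3445 to 9889 CPM in MAL-BG and did not pass (log2 fold change 0.37, SE 0.26, adjusted p = 0.255), nor did Ski (log2 fold change 0.16, SE 0.15, adjusted p = 0.39). Under microglia marker scaling 10 of the 16 were called lower and 0 higher (66.2% and 0.371% of all genes), and by the mean log2 CPM 4 were lower and 5 higher (15.9% and 25.3%).

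Of 20 known targets of PU.1 and IRF8 in myeloid cells, 6 were called higher and 0 lower against CON (11.4% and 21.7% of all genes, median log2 fold change 0.35), and 5 higher against MAL (10.2%, median 0.25). The 6 were Cx3cr1, the fractalkine receptor (log2 fold change 1.33, SE 0.27, adjusted p = 0.00105), Trem2, a lipid-sensing receptor (log2 fold change 1.29, SE 0.22, adjusted p = 0.000325), Fcgr1, a high-affinity Fc receptor (log2 fold change 0.88, SE 0.19, adjusted p = 0.00181), Btk, a kinase of immune receptor signaling (log2 fold change 0.75, SE 0.17, adjusted p = 0.00176), Aif1, which encodes IBA1 (log2 fold change 0.71, SE 0.18, adjusted p = 0.00478), and Cd68, a lysosomal protein (log2 fold change 0.61, SE 0.24, adjusted p = 0.0463). For Cx3cr1, Trem2, Btk, and Aif1, the lowest MAL-BG library exceeded the highest CON library (9.83% of all genes). Itgam, which encodes CD11b, the protein used to collect the cells, stood at 935 to 1173 CPM in CON and 1142 to 1461 CPM in MAL-BG and did not pass (log2 fold change 0.26, SE 0.13, adjusted p = 0.112). Under microglia marker scaling 8 of the 20 were called lower and 0 higher, against 66.2% and 0.371% of all genes, and 4 of the 20 are themselves among the markers that set this scale.

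Exons of Bhlhe41, Maf, Mef2a, Runx1, and Cebpa overlap those of a gene annotated on the opposite strand, over 1280, 440, 302, 106, and 51 bases. Libraries were stranded, but the strand option of the counting is not given in the sources used here, and without it reads of both genes cannot be told apart.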

How the data were processed

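The 9 genes and all gene lists were chosen with earlier results of these data known. RNA-Seq covered CD11b+ fractions of 16 mice. The authors used STAR to align the paired reads of stranded poly(A) libraries to GRCm38.p6 and HTSeq to count reads per gene, and the deposited values are these raw counts. Per the labels, the submitters' processing notes give HTSeq as version 2.5, whereas the Methods name a different version. The mode, strand option, and annotation of counting are not given in the sources used here. Columns of the table give the group and a running number that matches no sample title, so groups were taken from the column names.

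Counts were analysed in R 4.3.3. A gene was tested if it exceeded 10 counts in 4 or more libraries (14565 genes). After TMM scaling, 1 quasi-likelihood model of edgeR 4.0.16 (with limma 3.58.1) held all 3 groups. Benjamini-Hochberg correction ran over all tested genes. Genes were called DEGs where the adjusted p was below 0.05 and the log2 fold change beyond 0.58 in either direction. The study's code adds a batch term, but the batch of each library is not given in the sources used here, so none was fitted, and how far batch and group overlap was not examined. Log2 CPM used a prior count of 2. Pairs of libraries within a group differed far beyond counting noise (a chi-square of 10 or more for each degree of freedom), so all were kept as replicates, and the spread between mice sets the precision. All 9 genes are described. Of the family, signal, and target lists, at most the 6 called genes with the largest absolute change against CON and the 2 most abundant uncalled genes are named (1 gene is not reported here), and for each of the 9 genes the 3 most alike genes. The markers of 14 cell types and states were summed per library.

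Alternatives were 4 other scalings, DESeq2 1.42.0 without a batch term, 2 other filters, no fold threshold, 2-group fits, thinning of every library to the smallest total, each library left out in turn, and, chosen after seeing the data, 3 sets of libraries rich in markers left out. Steps were tested on simulated counts. Exon lengths and overlaps come from GENCODE vM21, and promoters and positions from RefSeq (GRCm38.p6).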

Additional observations from a re-analysis of the deposited data

Results flagged for a closer look

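Among 27 groups of 4 to 7 libraries (9 genes in 3 groups), 1 held a library far from the others, where chance alone flags about 1 in 20. Mef2c in CON replicate 1 measured 401.5 CPM, while the other 3 CON libraries had a median of 310.9 CPM and the nearest of them 311.3 CPM. The gap made up 0.974 of the range of the group, above Dixon's 95% critical value for 4 samples. The same library had the highest level in CON of all 9 genes, the highest microglia marker sum (28680 CPM), and the lowest choroid plexus marker sum (13940 CPM).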

How the results depend on the processing

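Other scalings, tools, filters, and samples were tried for each of the 9 genes. Of 252 recomputed log2 fold changes against CON, 225 kept direction and side of the threshold, 18 passed it anew, and 9 turned, 8 of them under microglia marker scaling. Against MAL, 224 of 252 stayed, 13 lost the call, 5 gained it, and 10 turned. For MAL versus CON, 239 stayed and 13 turned.

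Scaling by the mean log2 CPM called 7 of the 9 genes against CON and 5 against MAL. Against CON it also called 12 family, 9 signal (5 higher, 4 lower), and 10 target genes. Of all genes, this scaling called 25.3% higher and 15.9% lower against CON, and 24% and 14.6% against MAL. Microglia marker scaling called 66.2% of all genes lower and 0.371% higher against CON, and 63% and 0.405% against MAL. Microglia marker scaling called 2 of the 9 genes against CON, 3 against MAL, 18 family, 10 signal, and 8 target genes, of which 1 family gene was higher and all others were lower. There the log2 fold changes against CON were −0.82 (Spi1), −0.472 (Irf8), −0.492 (Runx1), −0.092 (Mef2c), −0.054 (Maf), −0.285 (Cebpa), −0.244 (Sall3), and −0.069 (Bhlhe41), against MAL −0.766 (Spi1), −0.486 (Irf8), −0.666 (Runx1), −0.187 (Mef2c), −0.184 (Maf), −0.497 (Cebpa), −0.28 (Sall3), and −0.085 (Bhlhe41), and for MAL versus CON −0.054 (Spi1), which was −0.003 with DESeq2 size factors and with the DESeq2 test. The adjusted p alone called 12 of 25 family and 8 of 16 signal genes against CON. It called 45.1% of all genes (19.8% higher and 25.2% lower), so both lists were near that share. Without the libraries rich in choroid plexus markers 0 of the 9 were called against MAL (6.64% of all genes higher), and Spi1 stood at −0.022. Without MAL-BG replicates 3 and 5, the richest of that group in choroid plexus and in neutrophil markers, 5 were called against CON. Of all genes, 11.8% were then called higher and 23.7% lower against CON. The cause was not tested in any of these.

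Leaving out 1 library at a time gave 3 to 5 called genes against CON (5 without CON replicate 1 or MAL-BG replicate 3), 1 to 4 against MAL (1 without MAL replicate 2, 3, or 5), 0 to 0 for MAL versus CON, and 7 to 10 family, 5 to 6 signal, and 5 to 7 target genes against CON. Without CON replicate 1, 14.3% of all genes were called higher and 23.2% lower against CON. Without MAL-BG replicate 3 these shares were 11.8% and 22.9%. Against MAL, they were 9.47% and 17.9% without MAL replicate 2, 8.85% and 17.6% without replicate 3, and 8.9% and 17.8% without replicate 5. Spi1 ranged from −0.022 to 0.18 against CON and from −0.023 to 0.175 against MAL. For MAL versus CON, Spi1 ranged from −0.045 to 0.068, Irf8 from −0.044 to 0.222, Sall3 from −0.042 to 0.29, and Bhlhe41 from −0.048 to 0.284. With 4 CON and 5 MAL libraries, differences under the fold threshold are poorly resolved. No paired analysis was possible because the numbers of the columns match no sample title and pair no libraries across groups.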

Other observations

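Further marker lists are given here as counts of called genes in MAL-BG versus CON and versus MAL. Of all genes, 11.4% were called higher and 21.7% lower against CON, and 10.2% and 20.2% against MAL. Some of the counts lie near these shares. Monocyte markers had 0 higher and 2 lower of 8 against CON and 0 higher and 4 lower against MAL, although monocytes also express Spi1, Irf8, and Cebpa. Border macrophage markers had 0 higher and 1 lower of 8 against CON and 2 lower against MAL, with sums of 219 to 655 CPM in CON and 208 to 337 CPM in MAL-BG. Lymphocyte markers had 3 higher of 7 tested in both comparisons and 1 lower against MAL, oligodendrocyte markers 3 higher of 7 in both, and endothelial and mural markers 2 higher and 1 lower of 10 against CON and 4 higher and 2 lower against MAL. Oligodendrocyte precursor markers had 2 lower of 5 in both, and ependymal markers 6 lower of 7 against CON and 4 lower against MAL. Choroid plexus markers were lower in 10 of 10 against CON and 9 of 10 against MAL, and 1 erythroid marker of the 5 listed was tested and called higher in both. In MAL versus CON 0 genes of any list were called.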
